A study of Mus musculus with 12 samples.

Results

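The genes described are 42 genes of the secretory pathway and of collagen folding, taken by symbol from a table of 25203 genes. All 42 were found under their symbols, and all 42 were among the 12641 genes that reached at least 1 FPKM (fragments per kilobase of transcript, scaled to library size) in at least 3 of 12 libraries. They were measured by RNA-seq in cultures of primary mouse stromal fibroblasts carrying the Pdgfra-lo-H2B-GFP reporter, a nuclear green fluorescent protein read at its low level. The series concerns the stroma of the intestine, and its labels call the cells mesenchyme. There were 4 groups of 3 libraries. The group Vehicle had no added ligand, and the group TGFB1 received exogenous TGFB1, a secreted ligand that signals through TGF-beta receptors. The groups Vehicle_Tgfbr2KO and TGFB1_KO were the corresponding cultures of cells labelled Tgfbr2KO, for the gene of the type 2 TGF-beta receptor. The labels give neither the dose and time of TGFB1, nor the deleted part of Tgfbr2 and how it was removed, nor the age or number of animals. The 3 libraries of a group are not said to come from separate animals or cultures, so p-values measure only the spread between these libraries.

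A secreted protein enters the endoplasmic reticulum (ER) through a membrane channel, loses its signal peptide, and is folded by chaperones and disulfide isomerases before a COPII coat packs it into vesicles bound for the Golgi. Collagen needs more than this: its prolines are hydroxylated, a dedicated set of isomerases and chaperones helps the triple helix to form, and the long rigid product needs cargo receptors that enlarge the carrier. When unfolded protein builds up, sensors in the ER membrane switch on chaperone genes through the unfolded protein response, and fibroblasts that make matrix rely on all of these steps.

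Chaperone genes carry short DNA elements that the transcription factors of this response bind, and these are shown because the members that hold them are not those that changed most below. The ER stress response element (ERSE) was searched as CCAAT and CCACG with 9 bases between them, ERSE-II as ATTGG and CCACG with 1 base between, and the unfolded protein response element (UPRE) as TGACGTGG, each on both strands. CCACG is a part of ERSE and ERSE-II, and UPRE holds it on its other strand. RefSeq promoter windows (GRCm38.p6, 250 bases before the start to 50 after, 300 in all) were matched for 32 of the 42 members. ERSE was in 6 of the 32 windows (18.8%), against 0.137% of the 27025 genes with a window. ERSE-II was in 2 (6.25%, against 0.0444%) and UPRE in 3 (9.38%, against 0.714%), while the short CCACG was in 26 (81.2%, against 35.5%). The matches that lie before the start are printed below 5′ to 3′ on the strand of the gene, with the element in capitals. Hspa5, Canx, Pdia6, Dnajc3 and the first match of Hsp90b1 carry ERSE in the direction of the gene. Calr and the second match of Hsp90b1 carry it reversed. Herpud1 carries ERSE-II, and Sec24d and, reversed, Kdelr3 carry UPRE.
Hspa5, chr2:34772015-34772053, plus strand: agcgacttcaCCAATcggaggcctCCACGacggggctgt
Calr, chr8:84847065-84847103, minus strand: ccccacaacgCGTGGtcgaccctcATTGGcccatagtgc
Hsp90b1, chr10:86705523-86705666, minus strand: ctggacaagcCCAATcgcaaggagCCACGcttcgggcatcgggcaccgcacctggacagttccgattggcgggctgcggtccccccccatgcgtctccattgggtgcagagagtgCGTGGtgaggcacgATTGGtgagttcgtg
Canx, chr11:50325790-50325828, minus strand: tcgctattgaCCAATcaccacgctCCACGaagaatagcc
Pdia6, chr12:17266481-17266519, plus strand: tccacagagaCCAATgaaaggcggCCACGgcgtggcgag
Dnajc3, chr14:118937817-118937855, plus strand: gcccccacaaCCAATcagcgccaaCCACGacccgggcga
Herpud1, chr8:94386367-94386397, plus strand: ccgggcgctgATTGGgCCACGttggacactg
Sec24d, chr3:123267460-123267487, plus strand: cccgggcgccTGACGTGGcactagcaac
Kdelr3, chr15:79516368-79516395, plus strand: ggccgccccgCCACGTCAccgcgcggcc
The other matches lay after the start, ERSE-II in Dnajb11 and UPRE in Sec23a. A match is a description of the letters and not a site shown to be bound.

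Across the libraries the deposited FPKM summed to between 498669 and 569510. Relative depth, estimated from genes under 0.5 FPKM with Vehicle replicate 1 set to 1, was 0.962 to 1.05 in Vehicle, 0.745 to 0.799 in TGFB1, 0.861 to 1.02 in Vehicle_Tgfbr2KO and 0.803 to 1.248 in TGFB1_KO. Depth was thus lowest in the TGFB1 libraries, and its part in the TGFB1 comparison was not tested. Tgfbr2 itself read 48.0, 38.2 and 78.8 FPKM in Vehicle, 56.5, 70.6 and 74.6 in TGFB1, 27.0, 35.2 and 41.9 in Vehicle_Tgfbr2KO and 31.6, 38.0 and 62.4 in TGFB1_KO. The 2 Vehicle groups overlapped (log2 difference -0.61, SE 0.30, limma adjusted p = 0.260), and a whole-gene value does not check a deletion whose position is not given. All 8 fibroblast markers reached 1 FPKM in at least 3 libraries, with sums of 5154 to 8526 FPKM in Vehicle, 8104 to 8873 in TGFB1, 2882 to 4022 in Vehicle_Tgfbr2KO and 3629 to 6633 in TGFB1_KO. The marker Pdgfra read 125 to 165 FPKM in Vehicle, 12.1 to 19.7 in TGFB1, 48.3 to 99.8 in Vehicle_Tgfbr2KO and 67.3 to 195 in TGFB1_KO. Of 6 smooth muscle markers 5 reached 1 FPKM in 3 libraries, and their sum was 2005 to 2497 FPKM in Vehicle, 2990 to 3320 in TGFB1, 1762 to 2126 in Vehicle_Tgfbr2KO and 1581 to 2468 in TGFB1_KO. The 9 macrophage and leukocyte markers, 7 of which reached 1 FPKM in 3 libraries, summed to 33.5 to 600 FPKM in Vehicle, 12.5 to 279 in TGFB1, 124 to 336 in Vehicle_Tgfbr2KO and 101 to 253 in TGFB1_KO. Lyz2 made up most of each sum, at 372, 24.8 and 547 FPKM in Vehicle and 214, 8.28 and 250 in TGFB1. In Vehicle_Tgfbr2KO it read 107, 304 and 241 FPKM and in TGFB1_KO 87.0, 226 and 156. The T cell marker Cd3e was at 0 in 11 of 12 libraries. The 7 epithelial markers summed to 0.821 to 1.54 FPKM in Vehicle, 1.64 to 3.43 in TGFB1, 1.86 to 51.2 in Vehicle_Tgfbr2KO and 1.33 to 20.0 in TGFB1_KO. Krt8 and Krt18 read 25.8 and 21.8 FPKM in Vehicle_Tgfbr2KO replicate 1 and 7.80 and 9.47 in TGFB1_KO replicate 1. Elsewhere neither reached 1 FPKM, and Krt8 was at 0 in 8 libraries. The 6 endothelial markers summed to at most 15.6 FPKM. The part of these other cells in the results below was not tested, and in bulk RNA fewer cells of a type and less RNA per cell cannot be told apart.

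The 42 members spanned a wide range of levels. Serpinh1, a chaperone dedicated to procollagen, was the highest with a mean of 1543 FPKM over the 12 libraries, and Ern1, a sensor of unfolded protein, the lowest with 8.32 FPKM. The median member stood at 102 FPKM. Together the members made up 1.5% ± 0.0255 (SD, n = 3) of the summed FPKM in Vehicle and 1.69% ± 0.0230 (n = 3) in TGFB1. In Vehicle_Tgfbr2KO the share was 1.45% ± 0.0293 and in TGFB1_KO 1.43% ± 0.0534 (n = 3 each). The TGFB1 libraries, at 1.67% to 1.72%, stood above all others, which reached at most 1.52%. Replicates lay close together: the median coefficient of variation of a member was 7.87% in Vehicle, 4.17% in TGFB1, 4.57% in Vehicle_Tgfbr2KO and 8.15% in TGFB1_KO.

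With TGFB1, 28 of the 42 members rose (66.7%) and none fell, where 17.3% of all tested genes rose and 14.6% fell (limma on log2(FPKM + 1), adjusted p under 0.05 over all 12641 genes). The rise was seen along the route that a secreted protein takes: all 6 members of the translocation group, all 4 coat subunits and all 5 cargo and retrieval receptors rose. Of the 7 genes of collagen hydroxylation and folding 5 rose, as did 4 of the 5 stress sensors and bZIP factors. The general chaperones had the smallest median change of any role, with none of 4 past the test. The median log2 change was 0.37 over the members and 0.018 over all tested genes. Among the 7127 tested genes at least as abundant as the lowest member, 24.2% rose and the median was 0.083. In 35 members (83.3%) all 3 TGFB1 libraries stood above all 3 Vehicle libraries, which held for 26.1% of all tested genes. A positive change was seen in 39 members, and the 33 members with an unadjusted p under 0.05 were all among these. Of the 12641 tested genes 6654 had a positive change, and 5321 had an unadjusted p under 0.05 in either direction. Changes on the log2(FPKM + 1) scale understate those of the lowest genes.

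**Figure D1:**
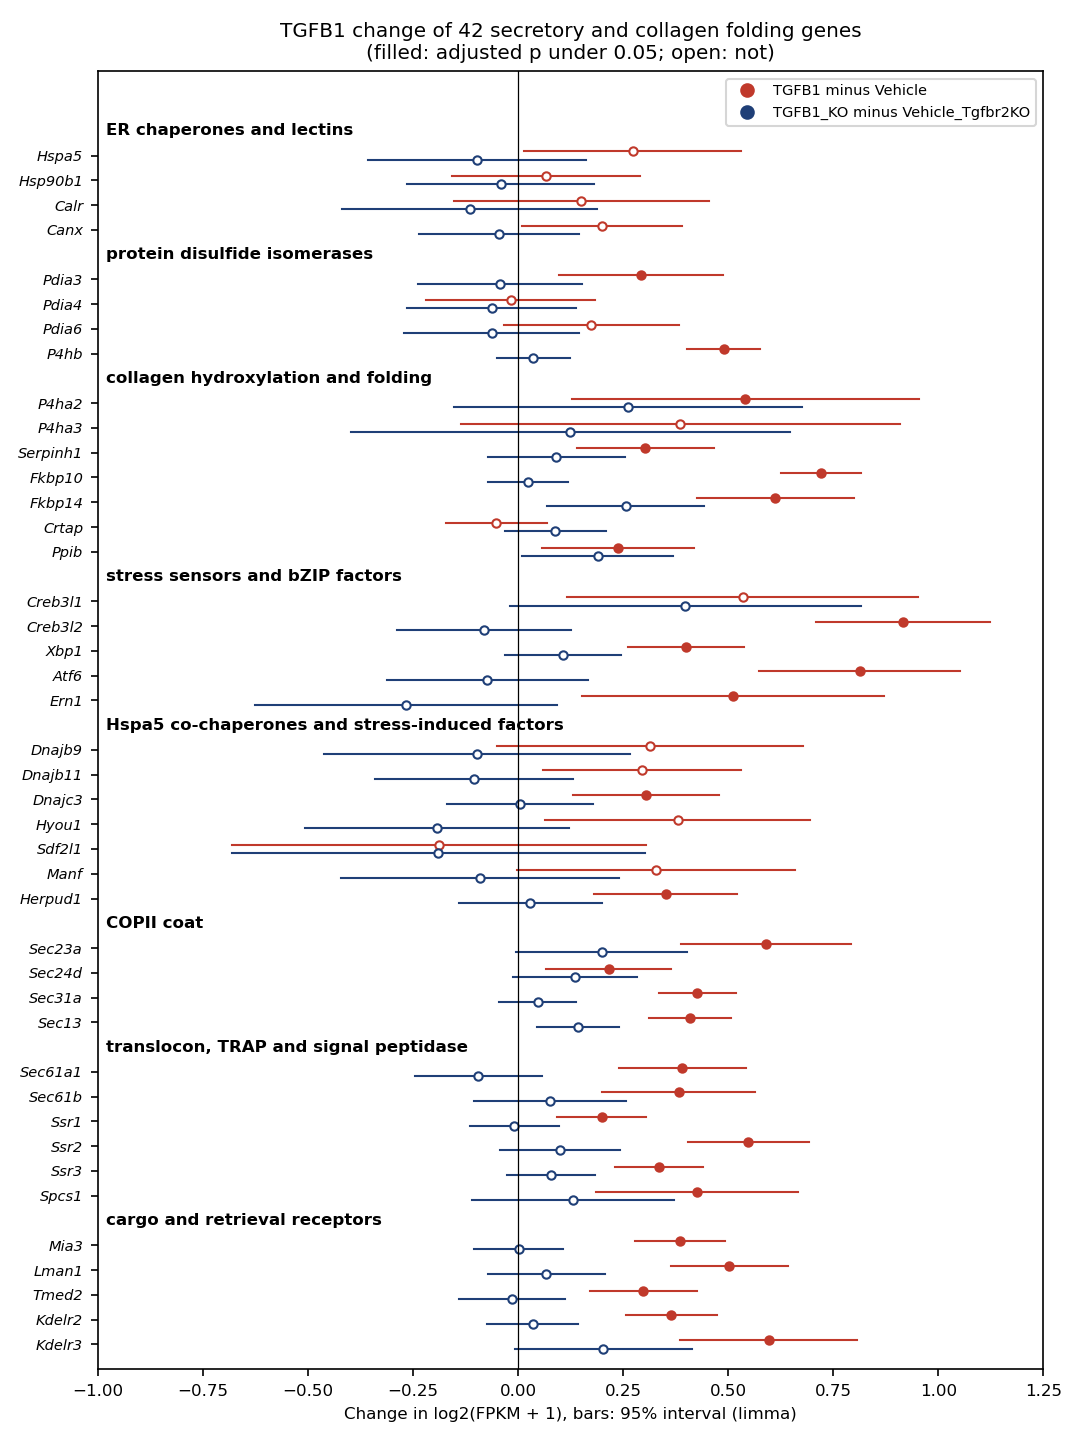
Change with TGFB1 in log2(FPKM + 1) for each of the 42 members (horizontal axis), ordered by role, with points for the limma estimate and bars for its 95% interval, in cultures not labelled Tgfbr2KO (red) and labelled Tgfbr2KO (blue); filled points passed an adjusted p of 0.05. Of the red points 28 are filled and all of these lie right of 0, and none of the blue points is filled.

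Genes of collagen hydroxylation and folding held the change with the lowest adjusted p of the set. Fkbp10, a prolyl isomerase of the ER that procollagen needs to be cross-linked, read 177, 171 and 174 FPKM in Vehicle and 291, 280 and 290 in TGFB1. The groups did not overlap, and the mean was 1.65-fold higher (log2 change 0.72, SE 0.04, limma adjusted p = 3.15e-06). Its relative Fkbp14 read 18.2, 18.3 and 22.7 FPKM in Vehicle and 31.4, 29.4 and 31 in TGFB1. Here too every TGFB1 library was the higher (1.55-fold, log2 0.61, SE 0.08, adjusted p = 0.000465). Serpinh1 read 1563, 1544 and 1760 FPKM in Vehicle and 1960, 1958 and 2077 in TGFB1. It did not overlap and rose 1.23-fold (log2 0.30, SE 0.07, adjusted p = 0.0104), although at its level this was a larger step in FPKM than that of any other member.

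P4ha2, a catalytic subunit of prolyl 4-hydroxylase, read 90.7, 84.8 and 113 FPKM in Vehicle and 107, 156 and 162 in TGFB1. TGFB1 replicate 1 lay within the Vehicle range, and the rise of 0.54 (SE 0.19) barely passed (adjusted p = 0.0483). Ppib, a cyclophilin that isomerises procollagen prolines, read 288, 289 and 323 FPKM in Vehicle and 332, 348 and 383 in TGFB1, a rise of 0.24 (SE 0.08, adjusted p = 0.0470). These 2 calls lay close to the threshold: P4ha2 lost its call without any 1 of 8 libraries (adjusted p 0.0522 to 0.160) and Ppib without any 1 of 7 (0.0533 to 0.165). Both were also lost with no filter, upper-quartile scaling, no variance trend and only the groups compared. With the labels' replicate number as a block both were called, at 0.00288 and 0.00122. The other catalytic subunit P4ha3 read 12.4, 14.4 and 20.2 FPKM in Vehicle and 20.7, 21.1 and 19.4 in TGFB1. With overlapping groups it missed the threshold (log2 0.39, SE 0.24, adjusted p = 0.245). Crtap, the partner of Ppib in the prolyl 3-hydroxylation complex, read 93.1, 90.6 and 95.3 FPKM in Vehicle and 87.8, 89.2 and 92.1 in TGFB1. The groups overlapped, and the interval ran from -0.17 to 0.07 on the log2 scale (adjusted p = 0.510).

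The cargo these proteins handle was itself variable. Col1a1, the gene of the main type I collagen chain, read 2546, 2165 and 3881 FPKM in Vehicle and 3737, 4110 and 4291 in TGFB1. The groups overlapped and the difference of 0.54 (SE 0.30) did not pass (limma adjusted p = 0.197). Col1a2, of the other type I chain, overlapped too (0.45, SE 0.45, adjusted p = 0.488). In the Tgfbr2KO cultures the changes with TGFB1 were 0.48 (SE 0.30) for Col1a1 and 0.80 (SE 0.45) for Col1a2. There too the groups overlapped and neither passed (both adjusted p = 0.738). Neither change differed between the genotypes by the limma interaction (adjusted p = 0.939 and 0.747).

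Among the disulfide isomerases P4hb, which is also the shared beta subunit of prolyl 4-hydroxylase, read 430, 426 and 441 FPKM in Vehicle and 599, 620 and 603 in TGFB1. The groups were far apart for their spread, and the mean was 1.4-fold higher (log2 0.49, SE 0.04, adjusted p = 1.80e-05). Pdia3, which works with the lectin chaperones on glycoproteins, read 378, 394 and 331 FPKM in Vehicle and 456, 461 and 433 in TGFB1. It rose by 0.29 (SE 0.09, adjusted p = 0.0280) without overlap, but lost its call without Vehicle replicate 3, TGFB1 replicate 1 or TGFB1 replicate 2 (adjusted p = 0.0958, 0.0809 and 0.0776). Pdia6 (log2 0.17, SE 0.09, adjusted p = 0.187) and Pdia4 (-0.02, SE 0.09, adjusted p = 0.910) did not pass.

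The general ER chaperones were abundant and moved little. Hspa5, the Hsp70 chaperone that also holds the stress sensors inactive, read 374, 398 and 343 FPKM in Vehicle and 469, 441 and 436 in TGFB1. All TGFB1 values were the higher, yet the change of 0.27 (SE 0.12) did not pass (limma adjusted p = 0.101). With the replicate block it passed (0.0160), and also without TGFB1_KO replicate 3, which enters through the shared spread (0.0312). Canx, a membrane lectin chaperone, behaved similarly, with a change of 0.20 (SE 0.09) and adjusted p-values of 0.104, 0.0351 with the block, 0.0594 with the block set within each genotype and 0.0373 without that library. Calr, the soluble lectin chaperone, read 607, 681 and 524 FPKM in Vehicle and 660, 711 and 632 in TGFB1. The groups overlapped (log2 0.15, SE 0.14, adjusted p = 0.441). Hsp90b1, the ER form of Hsp90, overlapped too (0.07, SE 0.10, adjusted p = 0.659), and its interval ran from -0.16 to 0.29.

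The sensors and bZIP transcription factors gave the largest changes of the set. Creb3l2, a membrane-bound factor that drives coat genes in cartilage, read 24.7, 23.2 and 28.7 FPKM in Vehicle and 49.9, 50.2 and 46.7 in TGFB1. It was 1.91-fold higher without overlap (log2 0.92, SE 0.09, limma adjusted p = 7.11e-05). Atf6, a sensor that is cut in the Golgi to release a transcription factor, read 8.55, 8.18 and 7.32 FPKM in Vehicle and 15.9, 14.9 and 13.7 in TGFB1, 1.85-fold higher (log2 0.81, SE 0.11, adjusted p = 0.000369). Both stand at the top of the 42 members by log2 change. Xbp1, whose transcript is spliced when unfolded protein is sensed, read 65.2, 59.0 and 68.1 FPKM in Vehicle and 82.9, 84.8 and 86.4 in TGFB1, a rise of 0.40 (SE 0.06, adjusted p = 0.000989). Gene-level FPKM do not separate its spliced from its unspliced form.

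Ern1, the kinase and nuclease that splices Xbp1, read 7.81, 6.07 and 6.17 FPKM in Vehicle and 11.0, 10.2 and 8.59 in TGFB1. It rose by 0.51 (SE 0.16, adjusted p = 0.0349), a call lost without any 1 of 5 libraries (Vehicle replicates 2 and 3, TGFB1 replicates 1 and 2, Vehicle_Tgfbr2KO replicate 2; 0.0502 to 0.118). Creb3l1, a relative of Creb3l2 known to drive the type I collagen gene in bone, read 110, 96.1 and 122.7 FPKM in Vehicle and 148, 166 and 163 in TGFB1. The groups did not overlap, but the change of 0.53 (SE 0.19) missed the threshold (adjusted p = 0.0526). It passed with the replicate block (0.0144), and without Vehicle_Tgfbr2KO replicate 1, TGFB1_KO replicate 1 or TGFB1_KO replicate 3 (0.0260, 0.0292 and 0.0334).

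Of the 7 co-chaperones and stress-induced factors 2 rose. Herpud1, a membrane protein of ER-associated degradation, read 36.5, 34.5 and 41.5 FPKM in Vehicle and 45.7, 48.0 and 50.4 in TGFB1 (log2 0.35, SE 0.08, limma adjusted p = 0.00621). Dnajc3, a J-domain partner of Hspa5, read 35.2, 34.9 and 31.2 FPKM in Vehicle and 43.4, 42.7 and 39.6 in TGFB1 (0.30, SE 0.08, adjusted p = 0.0138, and 0.0531 without TGFB1 replicate 1). Neither overlapped. The J-domain partners Dnajb9 (0.31) and Dnajb11 (0.30), the Hspa5 exchange factor Hyou1 (0.38) and the secreted stress protein Manf (0.33) were higher in every TGFB1 library than in any Vehicle library, with adjusted p-values of 0.176, 0.0574, 0.0650 and 0.121. All 4 passed with the replicate block (0.0274, 0.00372, 0.00270 and 0.0139), and Dnajb11, Hyou1 and Manf also without TGFB1_KO replicate 3 (0.0171, 0.0250 and 0.0269). Sdf2l1, which works with Dnajb11, went the other way, at 41.0, 42.7 and 29.1 FPKM in Vehicle and 34.4, 31.7 and 31.4 in TGFB1. The groups overlapped (log2 -0.19, SE 0.22, adjusted p = 0.559).

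Translocation into the ER rose as a whole group. Ssr2, a subunit of the translocon-associated protein complex (TRAP), read 166, 154 and 176 FPKM in Vehicle and 249, 225 and 251 in TGFB1, the largest change of the 6 (1.46-fold, log2 0.55, SE 0.06, limma adjusted p = 0.000183). Its partners Ssr3 (0.34, adjusted p = 0.000514) and Ssr1 (0.20, adjusted p = 0.01) rose less. Sec61a1, the pore of the channel, read 114, 112 and 107 FPKM in Vehicle and 152, 142 and 144 in TGFB1 (0.39, SE 0.07, adjusted p = 0.00183), and the small channel subunit Sec61b changed by nearly the same amount (0.38, SE 0.08, adjusted p = 0.00570). Spcs1, a subunit of the signal peptidase complex, rose by 0.43 (SE 0.11, adjusted p = 0.0131), a call lost without TGFB1 replicate 1 or replicate 3 (0.0543 and 0.0537). None of the 6 genes overlapped between the groups.

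All 4 subunits of the COPII coat rose. Sec23a, which with Sec24d forms the inner layer, read 44.0, 40.6 and 51.1 FPKM in Vehicle and 66.0, 67.0 and 72.0 in TGFB1 (1.51-fold, log2 0.59, SE 0.09, limma adjusted p = 0.000957). Sec24d, which selects cargo, changed least, from 77, 73.2 and 80.7 FPKM to 90.7, 89.8 and 88.0 in TGFB1 (0.22, SE 0.07, adjusted p = 0.0318). It lost its call without any 1 of the 3 TGFB1 libraries, Vehicle replicate 1 or Vehicle replicate 2 (0.0649 to 0.108). The outer layer, Sec13 and Sec31a, moved as a pair: Sec13 read 131, 122.7 and 126 FPKM in Vehicle and 169, 163 and 173 in TGFB1 (0.41, SE 0.04, adjusted p = 9.53e-05). Sec31a read 92.1, 91.0 and 94.6 FPKM in Vehicle and 126, 126 and 122 in TGFB1 (0.43, SE 0.04, adjusted p = 5.15e-05). Neither overlapped.

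The receptors that load cargo and return escaped ER proteins completed the route. Kdelr3, which retrieves proteins with a KDEL tail, read 72.0, 64.3 and 82.6 FPKM in Vehicle and 114, 104 and 112 in TGFB1 (1.51-fold, log2 0.60, SE 0.10, limma adjusted p = 0.00112). Its paralog Kdelr2 rose less, from 117, 112 and 121.4 FPKM to 148, 151 and 153 in TGFB1 (0.37, SE 0.05, adjusted p = 0.000409). Lman1, a lectin that carries glycoproteins out of the ER, read 76.7, 71.0 and 81.1 FPKM in Vehicle and 111, 103 and 111 in TGFB1 (0.50, SE 0.06, adjusted p = 0.000260). Mia3, which loads procollagen at ER exit sites, was at 28.6, 27.7 and 28.6 FPKM in Vehicle and 38.1, 37.8 and 36.1 in TGFB1 (0.39, SE 0.05, adjusted p = 0.000253). Tmed2, a receptor that cycles between ER and Golgi, changed by 0.30 (SE 0.06, adjusted p = 0.00313). In none of the 5 did the groups overlap.

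**Figure D2:**
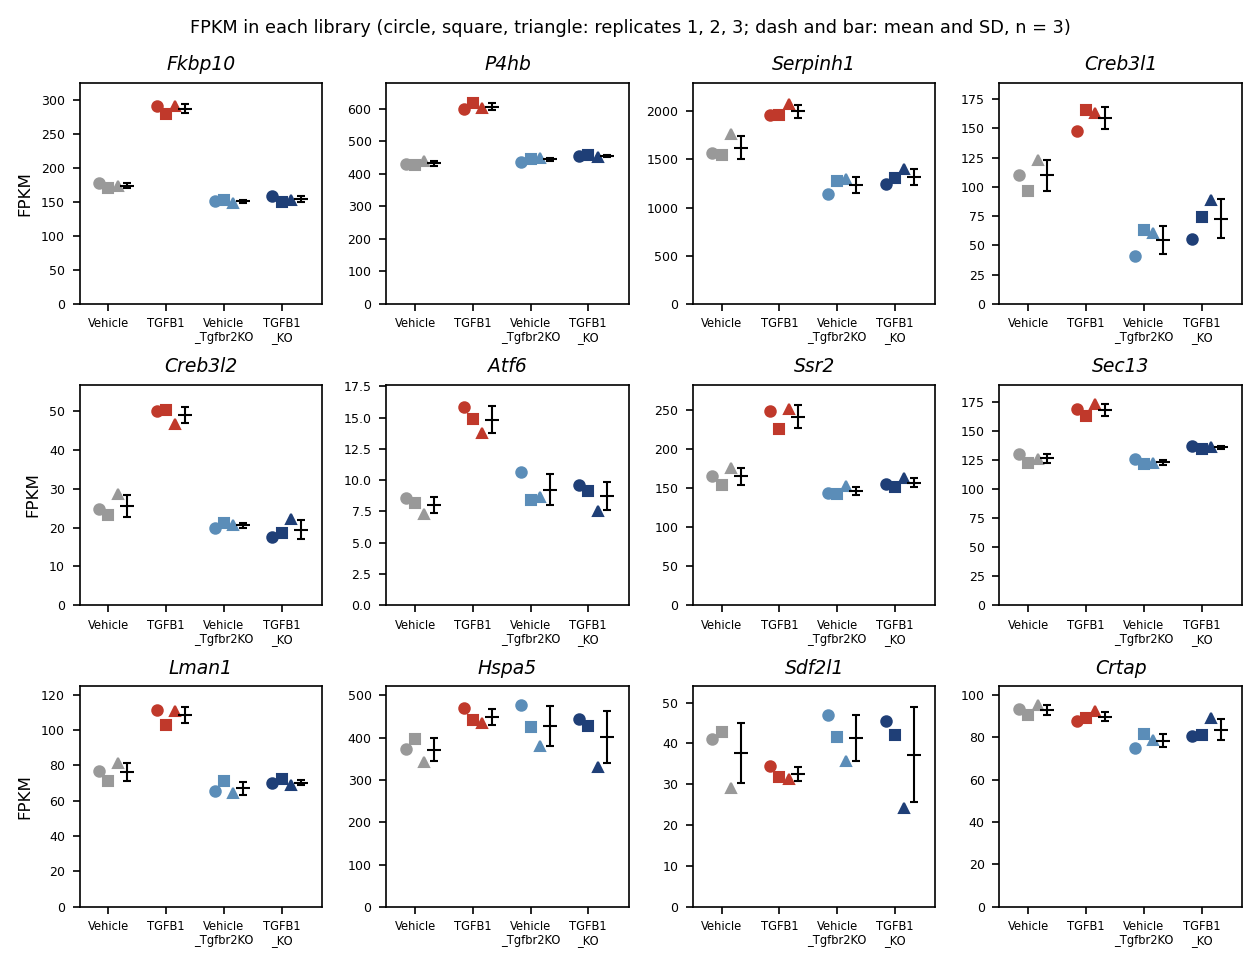
FPKM of 12 members in each library (vertical axis, linear from 0) by group, with circle, square and triangle for replicates 1, 2 and 3 and the mean ± SD (n = 3) at the right of each group. Fkbp10, P4hb, Creb3l2, Atf6, Ssr2, Sec13 and Lman1 stand higher in TGFB1 than in any library of the other groups, whereas Sdf2l1 overlaps between groups and Creb3l1 is lower in both Tgfbr2KO groups.

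The members that hold ERSE or ERSE-II, whose sequences are given above, were chaperones and other folding or degradation factors and were not those with the largest changes. All 4 general ER chaperones are among them, so element and role cannot be told apart here. Of the 8 members that hold ERSE or ERSE-II 2 rose with TGFB1 (Dnajc3 and Herpud1). Changes of the 8 ran from 0.07 to 0.35 with a median of 0.24. With the replicate block 5 of the 8 passed (also Hspa5, Canx and Dnajb11), and with the block within genotype 4 (not Canx). Of the 24 members whose window held neither element 19 rose, with changes from -0.19 to 0.92 and a median of 0.39, and 20 passed with either block. The 10 members without a window in the table had 7 rises, 10 with either block, and a median of 0.45. No letters in a window say whether a factor binds it, and the elements may lie outside these 300 bases. The 3 members with UPRE, Sec23a, Sec24d and Kdelr3, all rose.

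**Figure D3:**
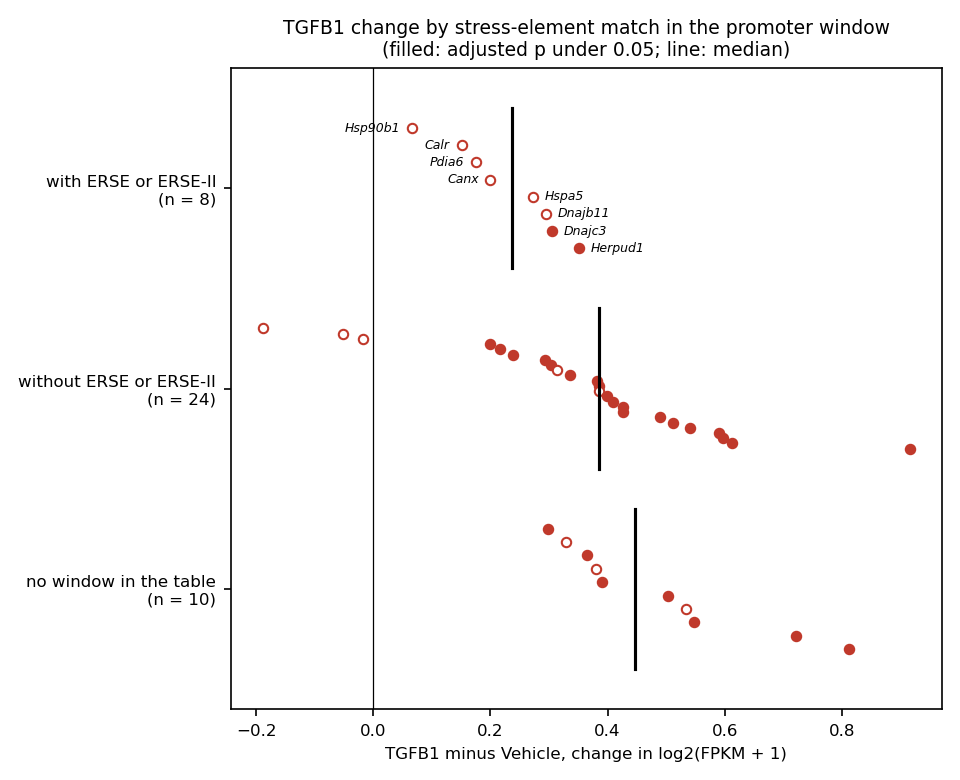
Change with TGFB1 in log2(FPKM + 1) (horizontal axis) for members whose RefSeq promoter window holds ERSE or ERSE-II (8), holds neither (24), or is not in the table (10); each point is 1 member, filled where the adjusted p was under 0.05, and the black line is the median. The 8 named members lie between 0.07 and 0.35, and 19 of the 24 without the elements are filled.

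In the cultures labelled Tgfbr2KO, no member passed the test with TGFB1, and no tested gene did (0 of 12641, 0% of the background). Before adjustment 748 genes had p under 0.05, among them 3 members (Fkbp14, Ppib and Sec13). With the replicate block limma again called no gene. The median log2 change of the members was 0.026, and 24 of 42 were positive. In 6 members (14.3%) all TGFB1_KO libraries stood above all Vehicle_Tgfbr2KO libraries, against 6.6% of all tested genes, and in none below. These were P4hb, Fkbp14, Ppib, Sec23a, Sec13 and Ssr3.

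Levels are given here for single members, whose differences ranged from near 0 to 0.40. Fkbp10 read 152, 153 and 149 FPKM in Vehicle_Tgfbr2KO and 159, 149 and 153 in TGFB1_KO, with an interval of -0.07 to 0.12 on the log2 scale. Creb3l2 read 19.8, 21.2 and 20.7 FPKM and then 17.6, 18.6 and 22.2, with an interval of -0.29 to 0.13. The groups of both genes overlapped. Fkbp14 read 17.7, 16.6 and 16.1 FPKM in Vehicle_Tgfbr2KO and 20.1, 19.1 and 21.4 in TGFB1_KO, which did not overlap (log2 0.26, SE 0.08, limma adjusted p = 0.738). The largest difference was that of Creb3l1, 41.2, 63.1 and 60.5 FPKM against 55.6, 74.1 and 88.7 (0.40, SE 0.19, adjusted p = 0.738). Its interval ran from -0.02 to 0.82.

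Whether the response to TGFB1 differed between the genotypes was tested as the change in the Tgfbr2KO cultures minus the change in the others. It was lower for 15 of the 42 members (35.7%) and higher for none, where 9.26% of all tested genes were lower and 8.38% higher (limma adjusted p under 0.05). Among tested genes at least as abundant as the lowest member 12.7% were lower. The median over the members was -0.32, against -0.017 over all tested genes. Among members called with TGFB1 in the other cultures, the difference was smallest for Ppib (-0.05, SE 0.11, limma adjusted p = 0.811) and Sec24d (-0.08, SE 0.09, 0.605). For Creb3l1 it was -0.14 (SE 0.27, 0.767). An unadjusted p under 0.05 was seen in 26 of the 42 members and in 4086 of the 12641 tested genes. Deviations of libraries that share a replicate number correlated within each genotype. Across the genotypes they did so for replicates 1 and 3 but not for replicate 2. With the block set within genotype 25 members were lower and none higher, and with 1 block over all 12 libraries 29.

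The largest differences were in 3 of the sensors and bZIP factors and in Fkbp10. Creb3l2 differed by -1.0 (SE 0.13, limma adjusted p = 0.000900), Atf6 by -0.89 (SE 0.15, adjusted p = 0.00371), Ern1 by -0.78 (SE 0.23, adjusted p = 0.0407) and Fkbp10 by -0.70 (SE 0.06, adjusted p = 9.73e-05). By role the differences that passed were P4hb among 4 disulfide isomerases, Fkbp10 among 7 collagen genes, and Creb3l2, Xbp1, Atf6 and Ern1 among 5 sensors and factors. Sec31a and Sec13 passed among 4 coat subunits, Sec61a1, Ssr2 and Ssr3 among 6 translocation genes, and Mia3, Lman1, Tmed2 and Kdelr2 among 5 receptors. None of the 4 chaperones and none of the 7 co-chaperones passed, while with the block within genotype Hspa5 (adjusted p = 0.0188) and 5 co-chaperones did (Dnajb9, Dnajb11, Dnajc3, Hyou1 and Manf, 0.00974 to 0.0384). That block also brought in Serpinh1 (0.0370), Sec23a (0.0170), Sec61b (0.0276) and Kdelr3 (0.0260). Pdia3, Fkbp14, Ssr1 and Herpud1 passed with the block over all libraries (0.0245 to 0.0372) and not within genotype (0.0516 to 0.0532). Of the members that hold ERSE or ERSE-II none of 8 passed, against 4 with the replicate block and 3 with the block within genotype. Of those that hold neither 8 of 24 passed, against 16 and 13.

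The interaction of 11 members passed in every one of 19 alternative analyses (P4hb, Fkbp10, Creb3l2, Atf6, Sec31a, Sec13, Sec61a1, Ssr2, Mia3, Lman1 and Kdelr2). Among these analyses, median-of-ratios scaling could change little, since its factor was the same in all 12 libraries. The other 4 called members lost their calls with some single libraries left out, and 2 of them also with other processing. Xbp1 lost its call with no filter, with upper-quartile scaling and with no variance trend, and Ern1 with no filter. Xbp1 (main adjusted p = 0.0452) lost its call without 10 of the 12 libraries taken singly (0.0621 to 0.102), all but Vehicle replicate 3 and TGFB1_KO replicate 3. Ern1 lost it without 8 of them (0.0724 to 0.0959), all but Vehicle replicate 1, TGFB1 replicate 3, Vehicle_Tgfbr2KO replicate 3 and TGFB1_KO replicate 1. Ssr3 lost it without Vehicle replicate 1 or 2, TGFB1 replicate 1 or 3, or Vehicle_Tgfbr2KO replicate 1 or 3 (0.0507 to 0.0594). Tmed2 lost it without Vehicle replicate 3, TGFB1 replicate 1 or 3, or Vehicle_Tgfbr2KO replicate 1 or 3 (0.0511 to 0.0660). In the other direction Fkbp14, Herpud1, Sec23a and Kdelr3 passed without Vehicle replicate 3 (0.00996, 0.0254, 0.0229 and 0.0258), Herpud1 and Sec23a without TGFB1_KO replicate 3 (0.0402 and 0.0246), and Sec61b without Vehicle replicate 1 (0.0444).

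Without added TGFB1, 2 members were lower in Vehicle_Tgfbr2KO than in Vehicle and none was higher, where 0.72% of all tested genes were lower and 0.522% higher. Creb3l1 read 110, 96.1 and 122.7 FPKM in Vehicle and 41.2, 63.1 and 60.5 in Vehicle_Tgfbr2KO. The groups did not overlap and the mean was lower (log2 -1.0, SE 0.19, limma adjusted p = 0.0404). Serpinh1 read 1563, 1544 and 1760 FPKM in Vehicle and 1140, 1271 and 1297 in Vehicle_Tgfbr2KO, lower without overlap (log2 -0.39, SE 0.07, adjusted p = 0.0404). Both calls were lost in 13 of 19 alternatives, among them each of 10 single libraries left out, while the size changed little: Serpinh1 ran from -0.43 to -0.33 (adjusted p up to 0.175) and Creb3l1 from -1.11 to -0.81 (up to 0.155). The exceptions were TGFB1_KO replicate 1 (0.0460 for Serpinh1 and 0.0368 for Creb3l1) and TGFB1_KO replicate 3 (0.0212 and 0.0192), the second of which raised the count of lower members from 2 to 8. The 6 added were P4ha3, Fkbp10, Crtap, Creb3l2, Xbp1 and Sec24d (adjusted p 0.0244 to 0.0499).

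The pattern over the roles is given as values, since most did not pass. All 7 genes of collagen hydroxylation and folding had negative changes (-0.89 to -0.12), and in P4ha3, Serpinh1, Fkbp10, Fkbp14 and Crtap the groups did not overlap. All 4 chaperones had positive ones (0.10 to 0.25). In P4ha3 the Vehicle libraries read 12.4, 14.4 and 20.2 FPKM and those of Vehicle_Tgfbr2KO 6.34, 7.56 and 9.91 (log2 -0.89, SE 0.24, limma adjusted p = 0.0880). Fkbp10 differed by -0.20 (SE 0.04, adjusted p = 0.0543) and Crtap by -0.24 (SE 0.05, adjusted p = 0.0583). Altogether 13 members (31%) lay wholly below their Vehicle libraries, against 15.6% of all tested genes, and 3 (Canx, Pdia3 and Dnajb9; 7.14%) wholly above, against 14.8%. Before adjustment 17 of the 42 members had p under 0.05, as did 2769 of the 12641 tested genes. Col1a1 read 845, 1395 and 1329 FPKM in Vehicle_Tgfbr2KO against 2546, 2165 and 3881 in Vehicle, with no overlap (log2 -1.26, SE 0.30, adjusted p = 0.0671). The sum of the fibroblast markers, in which Col1a1 is counted, was lower in Vehicle_Tgfbr2KO in every library. Without Col1a1, Col1a2 and Dcn, left out after their values were seen, the sum of the other 5 markers was 1516 to 1633 FPKM in Vehicle_Tgfbr2KO and 1538 to 1591 in Vehicle, which overlapped. Vim made up most of that sum, at 1203 to 1341 FPKM in Vehicle_Tgfbr2KO and 1088 to 1255 in Vehicle. Of the 5 only Pdgfra did not overlap, at 48.3 to 99.8 FPKM in Vehicle_Tgfbr2KO and 125 to 165 in Vehicle. The part of these markers in the differences was not tested. Both this comparison and that of TGFB1 use the Vehicle libraries, so values that set them side by side are not independent.

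The wider pathway was read from 100 further genes in 5 lists, 97 of them tested. With TGFB1 61 rose (62.9%) and 2 fell, close in share to the 42 members. Of genes for translocation and N-glycosylation 17 of 22 rose, of COPII, COPI and transport receptor genes 22 of 30, and of unfolded protein response and ER-associated degradation genes 11 of 19 with 1 fall. Of oxidative folding and lectin cycle genes 5 of 12 rose, and of further collagen modification genes 6 of 14 with 1 fall. Pdia5, a disulfide isomerase, rose most, from 37.3 ± 0.686 to 72.8 ± 6.5 FPKM (mean ± SD, n = 3). Its log2 change was 0.94 (SE 0.08, limma adjusted p = 2.65e-05). P3h1, the enzyme that acts with Crtap and Ppib, rose from 67.7 ± 6.24 to 124.6 ± 5.55 FPKM (0.87, SE 0.08, adjusted p = 5.09e-05), while Crtap did not pass. Colgalt1, which adds galactose to collagen hydroxylysine, rose by 0.79, and Qsox1, a secreted sulfhydryl oxidase, by 0.70. Eif2ak3, the sensor kinase that slows translation, rose from 5.63 ± 0.181 to 8.47 ± 0.420 FPKM (0.51, SE 0.07, adjusted p = 0.000610), and Ppp1r15a, which reverses that brake, by 0.66. In the other lists Bet1, a vesicle fusion protein, rose by 0.72, the cargo receptor Tmed3 by 0.71, Sec11c, a catalytic subunit of the signal peptidase, by 0.62, and Ostc, of the oligosaccharyltransferase, by 0.61.

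The 2 falls were Atf6b, a paralog of Atf6, from 39.2 ± 3.10 to 29.6 ± 2.13 FPKM (mean ± SD; -0.39 on the log2 scale, SE 0.11, limma adjusted p = 0.0206), and Tmem38b, an ER potassium channel, from 7.16 ± 0.701 to 5.45 ± 0.755 FPKM (-0.34, SE 0.12, adjusted p = 0.0472). Atf6 and Atf6b thus went in opposite directions in the same libraries. In the Tgfbr2KO cultures none of the 97 passed. The difference between the genotypes was lower for 29 of the 97 (29.9%, against 9.26% of all tested genes). It was higher for 1 (1.03%, against 8.38%), Tmem38b (0.54, adjusted p = 0.0482). Among the lower were Fkbp11, a further prolyl isomerase, at -0.91, Pdia5 at -0.88, P3h1 at -0.83, Sec11c at -0.72 and Qsox1 at -0.71. Sec23b stood at -0.58, Tmed3 at -0.57, Edem1 at -0.54, Srprb at -0.53 and Eif2ak3 at -0.48. Without TGFB1 1 of the 97 (1.03%, against 0.72% of all tested genes), P3h4, was lower in Vehicle_Tgfbr2KO (-0.25, SE 0.05, adjusted p = 0.0404).

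**Figure D4:**
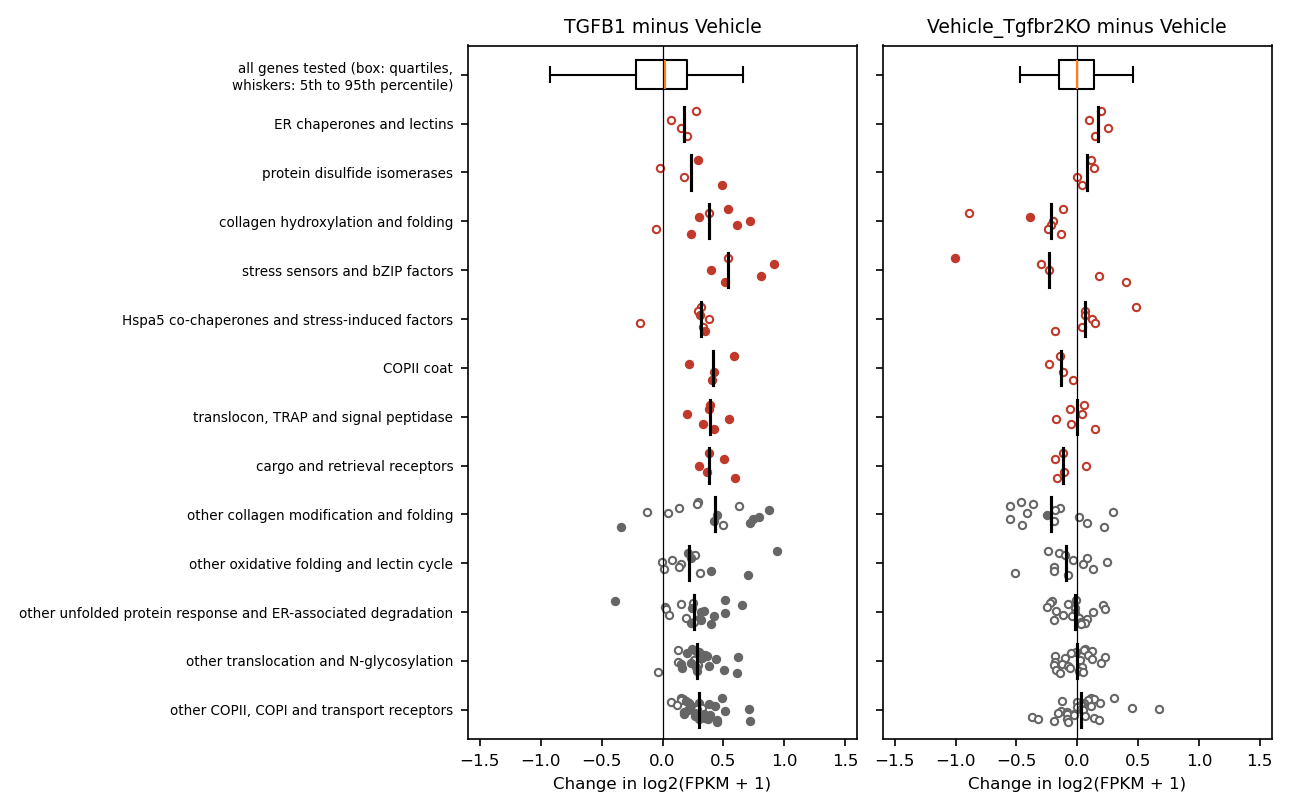
Change in log2(FPKM + 1) (horizontal axis) of each member by role (red) and of each further pathway gene by list (grey), for TGFB1 minus Vehicle (left) and Vehicle_Tgfbr2KO minus Vehicle (right); filled points had an adjusted p under 0.05, black lines are medians and the box shows all tested genes. At left the medians of all 8 roles lie right of 0 and above that of all genes, from 0.18 for the chaperones to 0.53 for the sensors and factors; at right 3 points are filled, Serpinh1, Creb3l1 and P3h4.

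Several members had the same replicate number as their highest or lowest library in every group. Over all tested genes, the deviations of Vehicle and Vehicle_Tgfbr2KO libraries correlated at 0.336 for replicate 1 and 0.412 for replicate 3 but at -0.0867 for replicate 2, and those of TGFB1 and TGFB1_KO at 0.337, 0.276 and 0.00945 in that order. Replicate 3 was the lowest of its group in all 4 groups for 7 members (16.7%, against 9.73% of all tested genes): Hspa5, Calr, Dnajb11, Dnajc3, Hyou1, Sdf2l1 and Manf, which are chaperones and their partners. It was the highest in all 4 for 6 members (14.3%, against 8.66%): P4ha2, Serpinh1, Ppib, Sec23a, Ssr2 and Kdelr2. Replicate 1 was the highest in all 4 for 6 members (14.3%, against 7.31%): Atf6, Ern1, Dnajb9, Sec61a1, Sec61b and Tmed2. It was the lowest in all 4 for 1 (2.38%, against 6.25%), Ppib. Replicate 2 was the highest for 3 (7.14%, against 2.16%), Hsp90b1, Calr and Pdia4, and the lowest for 2 (4.76%, against 2.47%), Sec13 and Ssr2. The spread was largest in TGFB1_KO, where Hspa5 read 444, 427 and 331 FPKM, Sdf2l1 45.6, 42.2 and 24.1, and Manf 277, 269 and 186. In each of these the third library was the low one. The median deviation of the 7 co-chaperones and stress-induced factors from their group mean in replicate 3 was -0.18 on the log2 scale in Vehicle, -0.07 in TGFB1, -0.16 in Vehicle_Tgfbr2KO and -0.23 in TGFB1_KO. Herpud1 ran the other way in 3 of the 4 groups (0.15 in Vehicle, 0.07 in TGFB1 and 0.11 in TGFB1_KO). For the 7 collagen genes the medians were 0.12, 0.04, 0.07 and 0.09. The labels do not say what the number stands for.

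**Figure D5:**
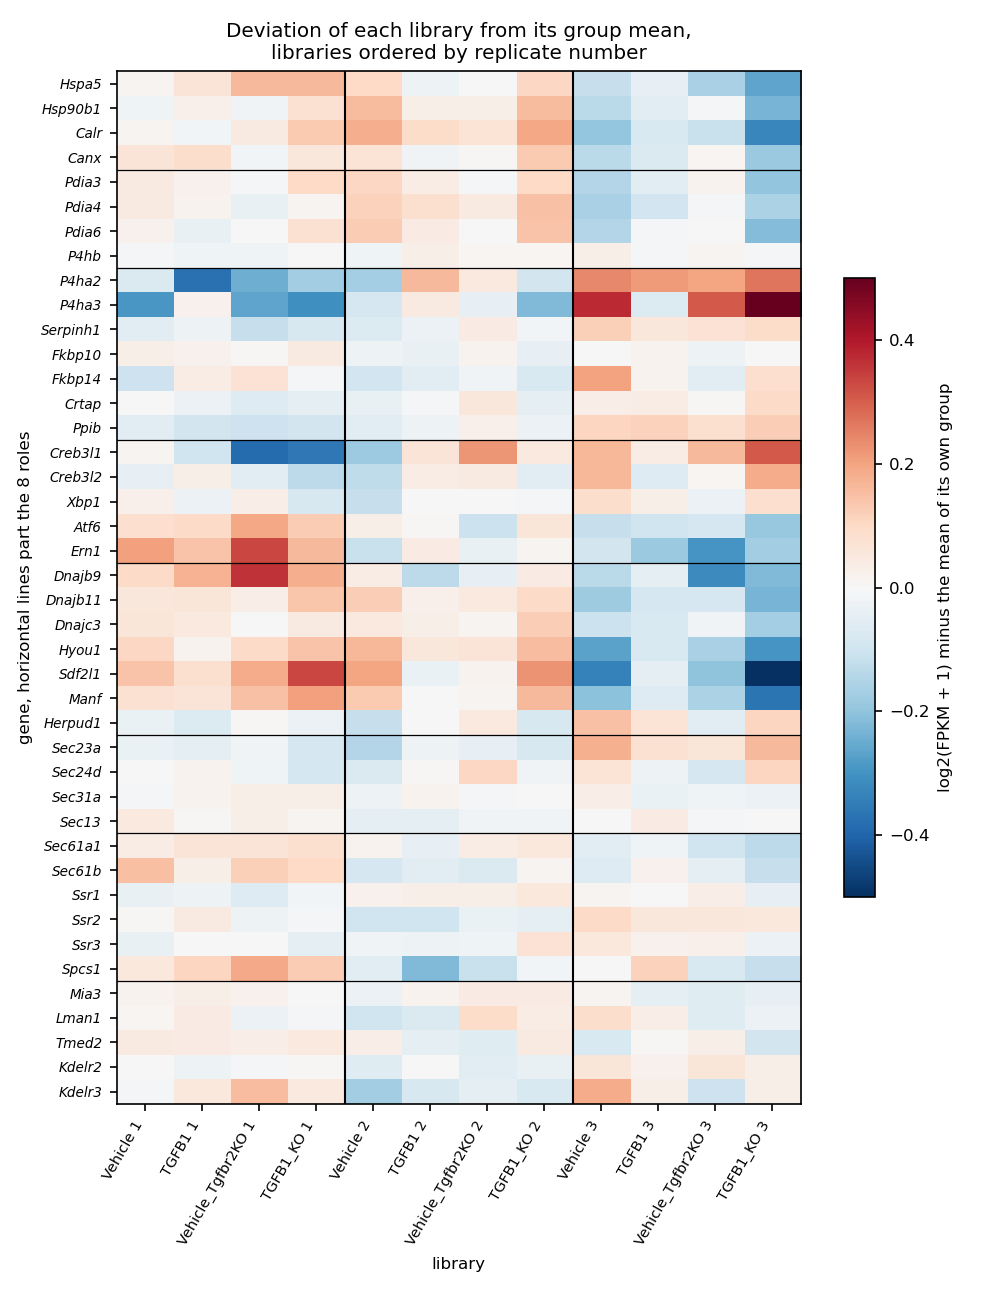
Difference of each library from the mean of its own group in log2(FPKM + 1) (colour, ending at 0.5 on either side, so that 1 value each of P4ha3 and Sdf2l1 past it has the end colour), with members as rows by role and libraries as columns ordered by replicate number. In the 4 columns of replicate 3 Hspa5, Calr and the rows from Dnajb11 to Manf are blue and P4ha2, Serpinh1 and Ppib are red.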

How the data were processed

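RNA-seq gene expression of 12 libraries was used as the FPKM values that the authors deposited, 1 value per gene symbol. Libraries of poly-A RNA followed extraction on columns, per the labels' protocols. The submitters' processing notes name kallisto 0.46.1, DESeq2 1.40.1 and the build mm9; how the FPKM were scaled is not given in the sources used here, and absolute depth is not known. Columns were assigned to libraries by group name and labelled number, and 0 other columns were left out. Of 25203 genes 4702 were 0 in every library.

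FPKM were taken as log2(FPKM + 1), and the test covered 12641 genes that reached 1 FPKM in 3 or more of the 12 libraries. limma 3.58.1 in R 4.3.3 (variance trend, empirical Bayes) fitted 4 group means to all 12 libraries with 8 residual degrees of freedom. Benjamini-Hochberg adjustment covered every tested gene, and an adjusted p under 0.05 was called. Figures and tables used matplotlib 3.10.9, pandas 2.3.3, numpy 2.4.6 and Python 3.11.15. Folds are ratios of mean FPKM and intervals are 95%. The median SE of a log2 change between 2 groups was 0.109, or 0.0852 over the members. The scripts were tested on simulated data. The 42 members, their roles and all lists were chosen with earlier results of these data known. All members may be named; of other pathway genes at most 2 called per list and direction, those of largest change, were named, provided that 1 compared group averaged 5 FPKM or more.

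The labels give each group the numbers 31, 121 and 123 (replicates 1, 2 and 3). Across genes, the deviations from the group mean of libraries that share a number were correlated (r = 0.391, 0.445 and 0.408 for Vehicle with TGFB1; 0.588, 0.227 and 0.529 for Vehicle_Tgfbr2KO with TGFB1_KO), so the number served as a block, 1 over all libraries or 1 within each genotype. Alternatives were that block, other pseudocounts, filters, scalings and variance models, only the groups compared, and each library left out. Promoter windows are RefSeq, GRCm38.p6, and were joined by symbol; protein sequences were not analysed here.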

Additional observations from a re-analysis of the deposited data

Results flagged for a closer look

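For 15 members the TGFB1 change in the Tgfbr2KO cultures differed from that in the other cultures by a test of the difference itself (limma interaction, adjusted over 12641 genes). Each value is the log2 change with TGFB1 in the Tgfbr2KO cultures minus that in the others. It was -1.0 for Creb3l2, -0.89 for Atf6, -0.78 for Ern1 and -0.29 for Xbp1. For Fkbp10 it was -0.70 and for P4hb -0.45. The translocation genes stood at -0.49 for Sec61a1, -0.45 for Ssr2 and -0.26 for Ssr3. For the coat subunits the value was -0.38 for Sec31a and -0.27 for Sec13. Among the receptors it was -0.43 for Lman1, -0.38 for Mia3, -0.33 for Kdelr2 and -0.31 for Tmed2. Adjusted p-values ran from 9.73e-05 for Fkbp10 to 0.0452 for Xbp1.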

How the results depend on the processing

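No called member changed its direction in any alternative. For TGFB1 minus Vehicle 23 to 35 members rose over 20 alternatives and none fell, and 20 of the 28 rose in all of them. Median-of-ratios scaling, 1 of the alternatives in each comparison, had a factor of 1.00572 in every library, so it could change little. It changed no member's call, and for Vehicle_Tgfbr2KO minus Vehicle it gave 65 genes higher and 90 lower, against 66 and 91. The deposited values were already level on that scale. With the replicate block 35 rose, and with the block within genotype 34 (not Canx). Over all genes these blocks gave 2873 and 2736 rises, against 2184 in the main fit. No filter gave 24 (without P4ha2, Serpinh1, Ppib and Ern1) and upper-quartile scaling 25, with 2066 and 1967 rises over all genes. With TGFB1 in the Tgfbr2KO cultures no member passed in any alternative; over all genes a pseudocount of 0.1 gave 1 rise, and leaving out single libraries gave 0 to 1 falls. The interaction was lower for 29 members with the replicate block (all genes 1716 higher, 1942 lower), for 25 with the block within genotype (1733 and 1825), and for 11 to 17 with single libraries left out (all genes 773 to 1311 lower). No filter, upper-quartile scaling and no variance trend each gave 14 members lower (all genes 1056, 1062 and 1103 lower). For Vehicle_Tgfbr2KO minus Vehicle the libraries of replicates 1, 2 and 3 correlated at 0.336, -0.0867 and 0.412, so any pairing by number was partial. In this comparison the replicate block gave 2 members higher and 8 lower (all genes 886 and 1011, against 66 and 91). No filter left 0 members lower (all genes 26 and 45), no variance trend 0 (46 genes lower), and only the groups compared 0 (all genes 0 and 0). Leaving out single libraries gave 0 to 8 members lower, and over all genes 0 to 329 higher and 0 to 419 lower. The cause of these moves was not tested. Depth limits the low values. The median 95% interval reached 0.242 to either side for a log2 change between 2 groups and 0.343 for the interaction.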
